A study of Mus musculus with 6 samples.

Results

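The genes of antigen recognition and of antigen presentation on MHC class II were followed in whole mouse brainstem, with and without Rag1. They are the 10 genes Cd4, Cd3e, Ms4a1, Cd79b, Ptprc, Cd74, H2-Aa, H2-Ab1, H2-Eb1 and Ciita, taken by their symbols from the 18058 genes of the deposited expression table, and all 10 were listed there. Total RNA came from snap-frozen brainstems of 1-month-old mice that carried no graft, 3 wild type (WT, C57BL/6J) and 3 Rag1-/- (germline Rag1 mutants on the same background, B6.129S7-Rag1tm1Mom/J), each from a separate mouse. Rag1 encodes a subunit of the enzyme that cuts and joins antigen receptor gene segments, and mice without it lack mature T and B cells in every organ while they keep NK cells, microglia and other myeloid cells. The study used this comparison to ask what differs in the brainstem of mice that accept human low-grade glioma grafts.

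T cells read peptides held by MHC molecules through the T cell receptor and its CD3 signalling chains, and CD4 is the coreceptor of those that read class II. B cells bind antigen directly through the B cell receptor, which signals through the CD79 pair. Class II molecules are pairs of an alpha and a beta chain that fold on the invariant chain CD74, and their genes share the master activator CIITA, which works through factors bound at the X and Y boxes of their promoters. In healthy brain, lymphocytes are rare, and class II is known mainly from macrophages and dendritic cells at the borders of the tissue and from few microglia.

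Promoters of a class II alpha chain and a class II beta chain gene are shown because the members of this pathway are described together below. The 150 bases before the start site are given 5′ to 3′ on the gene strand from RefSeq (GRCm38.p6), at chr17:34287824-34287973 on the minus strand for H2-Aa and at chr17:34305717-34305866 on the plus strand for H2-Eb1. Capitals mark CTNGCAAC, the core of the X box, and ATTGG, the core of the Y box, with CCAAT where the Y box letters lie on the opposite strand.
H2-Aa: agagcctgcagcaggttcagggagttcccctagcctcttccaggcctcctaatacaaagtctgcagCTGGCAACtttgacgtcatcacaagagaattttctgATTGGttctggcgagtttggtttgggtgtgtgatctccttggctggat
H2-Eb1: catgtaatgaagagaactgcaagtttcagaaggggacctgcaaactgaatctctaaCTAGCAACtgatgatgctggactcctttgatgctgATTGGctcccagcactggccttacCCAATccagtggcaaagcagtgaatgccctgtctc

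In H2-Aa the X box letters begin 84 bases before the start site and the Y box letters 48 bases before it. The same order was found in H2-Eb1, at 94 and 59 bases, with CCAAT at 35 bases. Both strands were searched. Of 32851 promoter windows of the same length, 24.5% held ATTGG on either strand, 1.95% held CTNGCAAC on either strand, and 0.131% held both on the gene strand. The letters of the X box were chosen after these windows had been read, since a first pattern, CCNAGNNAC, was in neither of them and was in 8.92% of all windows. A window outside chromosome 18 was found for 4 of the 10 genes, the other two being Ptprc and Cd3e, whose windows held neither core.

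Expression was given by the authors in CPM, the reads of a gene scaled to a fixed library size. The step between low values gave the CPM that 1 read stands for, from 0.0215 to 0.0317, and with it an estimated depth of 34800000 to 46400000 reads in the WT libraries and 31600000 to 35100000 in those labelled Rag1-/-. A floor of 3 reads then lay between 0.0646 and 0.095 CPM, which covers counting error only. Read numbers below are values divided by this step. Of the 60 values of the 10 genes, 59 were whole reads within 0.1 read, 10 stood at 3 reads or fewer, and 5 at the lowest deposited value of 0.0001 CPM, which stands for 0 reads.

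Some libraries went against their labels or stood apart. Rag1 itself was at 0.246 ± 0.137 CPM (SD, n = 3) in WT and at 3.18 ± 0.75 CPM (SD, n = 3) in libraries labelled Rag1-/-, so the targeted gene was higher where it is labelled as lost. A value over the whole gene does not show which part of the transcript was read and so does not check the mutation, and these libraries are named by their label throughout. WT replicates 1 and 2 held 172 and 177 CPM of Xist, the other 4 libraries at most 2.93 CPM, and Ddx3y from the Y chromosome was the reverse, at 0.283 and 0.215 CPM against 45.2 to 56.2 CPM. That is a female pattern in WT replicates 1 and 2 and a male pattern in the other 4 libraries, though the labels give no sex. Sex and genotype therefore cannot be fully told apart in the comparisons below, whose main fit has no term for it. Brainstem markers were present in all 6 libraries, but labelled Rag1-/- replicate 2 was low in Hox genes of the hindbrain, with Hoxa5 at 0.349 CPM against 2.04 to 9.93 CPM elsewhere.

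None of the 8 genes that could be tested was called different between the genotypes. Log2(CPM + 0.1) was compared across the 16762 genes whose mean reached 0.1 CPM by limma-trend with Benjamini-Hochberg adjustment, a scale that understates the change of low genes. It tested 8 of the 10, since Cd3e and Ms4a1 lay under the filter, and called 0 of them at an adjusted p under 0.05, against 8 of all tested genes (0.0477%). Limma without the trend also called 0 of them. Their adjusted p in limma-trend ran from 0.395 to 0.959. At an unadjusted p up to 0.05, 1 of 8 was lower in libraries labelled Rag1-/- (Ptprc, 12.5%), where 9.29% of all tested genes were, and 0 were higher, where 2.27% were. That lean of the background depended on the scaling: with quantile normalization 3.82% of all genes passed as lower and 8.92% in either direction. Only Ptprc of the 8 was lower in every library labelled Rag1-/- than in all WT libraries, as were 14.4% of tested genes (6.82% with quantile normalization and 7.65% with median-of-ratios scaling, where Ptprc stayed separated), and 0 were higher in every one, where 3.98% were. On the deposited scale, the share of these genes past either line was thus near that of all genes. The exact two-sided permutation test used for single genes cannot go below p = 0.1 with 3 samples against 3.

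**Figure D1:**
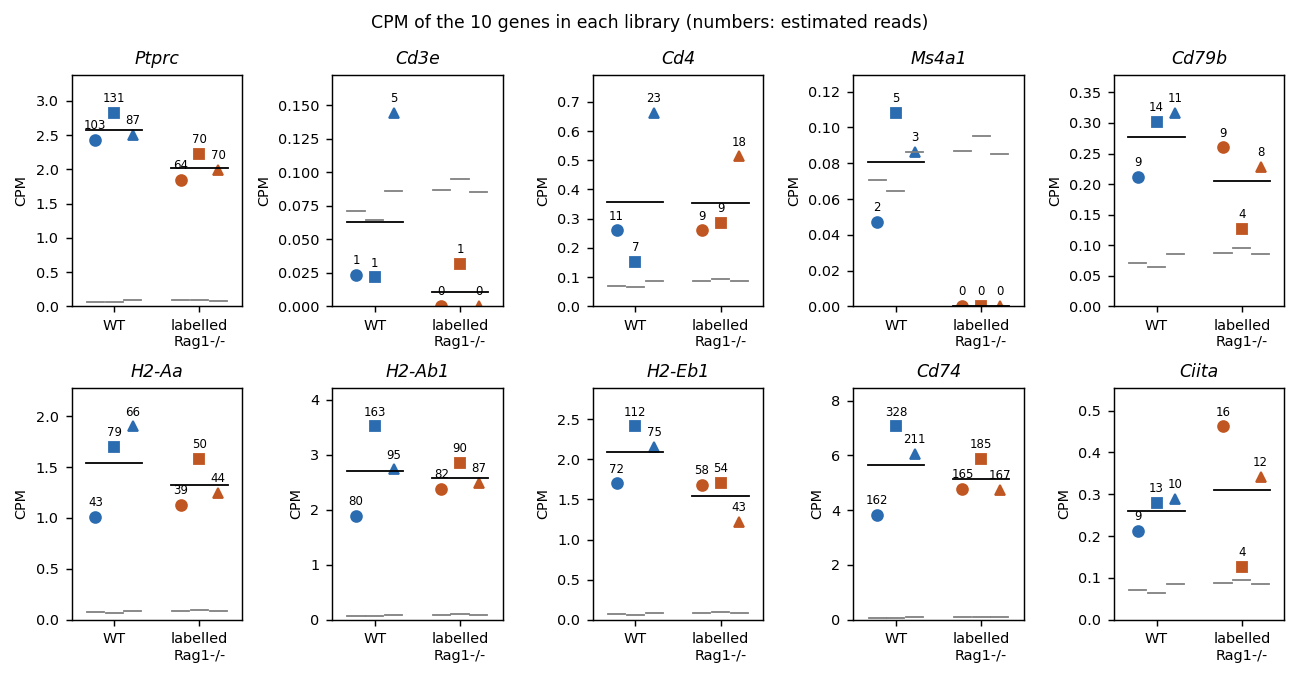
Level of each of the 10 genes in CPM (vertical axis, linear, from 0) in the 3 WT and the 3 libraries labelled Rag1-/-. Circles, squares and triangles are replicates 1, 2 and 3, numbers are estimated reads, black lines are group means and short grey lines each library's 3-read floor. Ptprc and Ms4a1 are the genes whose groups do not overlap, and WT replicate 1 (circle) is the lowest WT library for H2-Aa, H2-Ab1, H2-Eb1 and Cd74.

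Ptprc encodes CD45, the phosphatase on the surface of all leukocytes, microglia included, and was the gene with the smallest p. It lies on chromosome 1 (mm10, 138062859 to 138175305, minus strand). Its level was 2.43, 2.82 and 2.5 CPM in WT replicates 1 to 3 (103, 131 and 87 reads) and 1.85, 2.22 and 1.99 CPM in libraries labelled Rag1-/- (64, 70 and 70 reads). Every WT library was thus above every library labelled Rag1-/-, with the narrowest gap between WT replicate 1 and labelled Rag1-/- replicate 2. The means were 2.58 ± 0.208 and 2.02 ± 0.186 CPM (SD, n = 3), a change of -21.8%. On the log2 scale the difference was -0.34 (SE 0.13, 95% interval -0.64 to -0.04), with an unadjusted p of 0.0305 and an adjusted p of 0.395 by limma-trend, and p = 0.1 by the exact permutation test. The gap therefore failed the correction over all genes. Leaving out WT replicate 2, labelled Rag1-/- replicate 1 or labelled Rag1-/- replicate 3, quantile normalization, or a term for the Xist-high libraries moved the unadjusted p above 0.05, and the log2 difference stayed between -0.41 and -0.25 in all 15 alternatives. In bulk tissue, fewer cells of a type and less RNA per cell cannot be told apart.

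Ptprc was the 1 gene of a pan-leukocyte list of 10 with an unadjusted p up to 0.05 in limma-trend, as lower, where 9.29% of all tested genes were. The other 9 did not pass that line, and the median log2 difference was -0.02, against -0.05 over all tested genes. Ikzf1, a transcription factor of the lymphoid lineage that microglia also express, was the other gene of this list with no overlap, at 3.59 to 3.94 CPM in WT and 3.42 to 3.58 CPM in libraries labelled Rag1-/-, a log2 difference of -0.08 (SE 0.1). It is named for that separation, which 14.4% of all tested genes showed, after its values were seen. The summed level of the list was 103 to 111 CPM in WT and 100 to 107 CPM in libraries labelled Rag1-/-. Microglia markers, 10 of 10 tested and 0 at an unadjusted p up to 0.05 in limma-trend, summed to 262 to 301 CPM and 270 to 291 CPM.

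Cd3e was near the floor in both genotypes. It encodes a signalling chain of the T cell receptor (chromosome 9, 44998743 to 45009590, minus strand), and was at 0.0237, 0.0216 and 0.144 CPM in WT, which is 1, 1 and 5 reads. In libraries labelled Rag1-/- it was at 0.0001, 0.0318 and 0.0001 CPM, which is 0, 1 and 0 reads. Only WT replicate 3 stood over its 3-read floor, so a difference was not detectable at this depth (p = 0.3 by the exact permutation test). An exon of Gm48719 overlaps Cd3e on the opposite strand, and whether the counting used strand is not stated, so the few reads cannot be assigned to either gene with certainty.

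Cd4 (chromosome 6, 124864693 to 124888209, minus strand), which is known from helper T cells and also from some macrophages and dendritic cells, had more reads than Cd3e in every library. It was at 0.26, 0.151 and 0.661 CPM in WT (11, 7 and 23 reads) and at 0.26, 0.285 and 0.513 CPM in libraries labelled Rag1-/- (9, 9 and 18 reads). Replicate 3 was the highest library of either genotype and the groups overlapped. The means were 0.357 ± 0.269 and 0.353 ± 0.139 CPM (SD, n = 3), a log2 difference of 0.10 (SE 0.42) with an adjusted p of 0.942 by limma-trend. The 95% interval ran from -0.85 to 1.06. In CPM + 0.1, a change of 2.08-fold upward or to 0.554 of WT was thus within the error, and in CPM alone the range is wider. The exact permutation test gave p = 1. With a term for the Xist-high libraries the log2 difference was -0.79, and without WT replicate 2 it was -0.25.

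Across the T cell list of 17 genes, 13 were deposited and 6 passed the filter, and limma-trend called 0 of them at an unadjusted p up to 0.05 in either direction. Cd3d, Cd3g, Cd6 and Ctla4 were not among the deposited genes used here. Cd28, a costimulatory receptor of T cells, was under the filter and was the 1 deposited gene of the list lower in every library labelled Rag1-/-, at 4, 3 and 7 reads in WT and 0, 1 and 2 reads, a separation that 7.79% of genes under the filter showed. It is named after its values were seen. Il7r, the interleukin-7 receptor chain, was at 0.732, 0.539 and 0.46 CPM in WT (31, 25 and 16 reads) and at 0.26, 0.539 and 0.171 CPM in libraries labelled Rag1-/- (9, 17 and 6 reads). Labelled Rag1-/- replicate 2 equalled WT replicate 2 and lay above WT replicate 3, so the groups overlapped, and the log2 difference was -0.75 (SE 0.34, adjusted p = 0.441 by limma-trend). Lck, a kinase that starts T cell receptor signalling, was at 0.607 ± 0.0969 CPM in WT and 0.658 ± 0.101 CPM (SD, n = 3) in libraries labelled Rag1-/-. Zap70 alone made up 56.9% of the summed level of the list, with 3.29 ± 0.505 CPM in WT and 2.9 ± 0.26 CPM in libraries labelled Rag1-/-. The summed level, 4.99 to 6.71 CPM against 4.69 to 5.42 CPM, is therefore mostly the level of one kinase and overlapped between the genotypes.

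**Figure D2:**
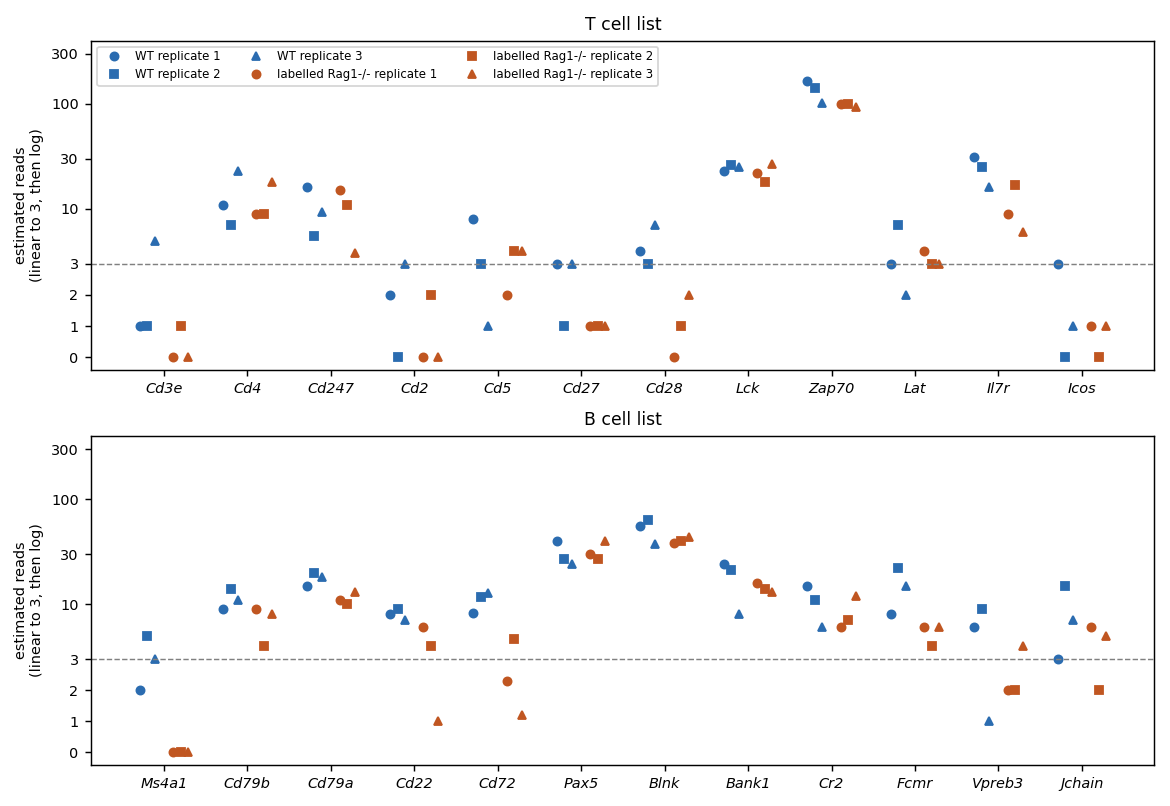
Estimated reads of deposited genes of the T cell list (top) and the B cell list (bottom) in each library; the vertical axis is linear up to 3 reads and logarithmic above, and the dashed line marks 3 reads. Ms4a1 has 2, 5 and 3 reads in WT and 0 in every library labelled Rag1-/-, while Cd4 and Cd79b have reads in all 6 libraries.

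B cell genes gave few reads as well, and Ms4a1 was read in WT only. It encodes CD20, a protein of the mature B cell surface (chromosome 19, 11250603 to 11266151, minus strand), and was at 0.0473, 0.108 and 0.0863 CPM in WT, which is 2, 5 and 3 reads. It was at 0.0001 CPM, 0 reads, in each library labelled Rag1-/-, where a count of 0 allows up to 0.0866, 0.095 and 0.0854 CPM. The groups did not overlap (10 reads in all against 0, p = 0.1 by the exact permutation test), as for 7.79% of the 1296 genes under the filter. The WT mean was 0.0805 ± 0.0307 CPM (SD, n = 3). The limits are those of single libraries and were not computed for the group, so the WT mean is not set against them. No fold is given, since the libraries labelled Rag1-/- held 0 reads.

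Cd79b, the beta chain of the B cell receptor's signalling pair (chromosome 11, 106311341 to 106314562, minus strand), was read in all 6 libraries. It was at 0.212, 0.302 and 0.316 CPM in WT (9, 14 and 11 reads) and at 0.26, 0.127 and 0.228 CPM in libraries labelled Rag1-/- (9, 4 and 8 reads). WT replicate 1 fell inside the range of libraries labelled Rag1-/-. The means were 0.277 ± 0.0562 and 0.205 ± 0.0695 CPM (SD, n = 3), a log2 difference of -0.32 (SE 0.28, 95% interval -0.97 to 0.32) with an adjusted p of 0.677 by limma-trend and p = 0.3 by the exact permutation test. Unlike Ms4a1, it thus kept 21 reads in libraries labelled Rag1-/-, against 34 in WT.

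Of the B cell list of 17 genes, 13 were deposited and 10 were tested. At an unadjusted p up to 0.05, 2 of these 10 were lower (9.29% of all tested genes were) and 0 higher in limma-trend, and none was called at an adjusted p under 0.05. Cd72, a B cell coreceptor that myeloid cells also carry, was at 0.27 ± 0.0876 CPM in WT and 0.0836 ± 0.0595 CPM (SD, n = 3) in libraries labelled Rag1-/-, a log2 difference of -1.03 (SE 0.34, adjusted p = 0.359 by limma-trend). That is 8.2, 11.6 and 12.7 reads in WT and 2.3, 4.7 and 1.2 in libraries labelled Rag1-/-. None of these was whole within 0.1 read, so the Cd72 values are uncertain. Fcmr, the Fc receptor for IgM, was at 0.365 ± 0.154 and 0.157 ± 0.0262 CPM, a log2 difference of -0.80 (SE 0.32, adjusted p = 0.405 by limma-trend). In both, every library labelled Rag1-/- was below every WT library, and the third of 10 tested genes with this separation (14.4% of all tested genes) was Cd22, an inhibitory receptor of B cells with 8, 9 and 7 reads in WT and 6, 4 and 1 in libraries labelled Rag1-/-. Pax5, the transcription factor of B cell identity, which the hindbrain also expresses, went the other way, at 0.739 ± 0.186 and 0.954 ± 0.161 CPM (SD, n = 3), and its groups overlapped.

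The median log2 difference of the 10 tested B cell genes was -0.30, against -0.05 over all tested genes. Their summed level, with the 3 deposited genes under the filter, was 4.36 to 5.01 CPM in WT and 3.76 to 4.22 CPM in libraries labelled Rag1-/-, which did not overlap. Blk, Fcrla, Ighm and Igkc were not among the deposited genes used here.

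Marker genes of NK cells, which do not need Rag1, were also read. Of the 8 genes of their list 6 were deposited and 3 tested, and 1 of the 3, Nkg7, a protein of cytotoxic granules, had an unadjusted p up to 0.05, lower in libraries labelled Rag1-/- as were 9.29% of all tested genes (3, 8 and 9 reads against 2, 2 and 0, adjusted p = 0.429 by limma-trend). The other tested genes, Eomes (log2 difference -1.19, SE 0.53) and Gzma (0.13, SE 0.29), overlapped between the genotypes. Klrb1c, under the filter, went the other way and was higher in every library labelled Rag1-/-. It had 0, 2 and 1 reads in WT and 2, 3 and 2 in those libraries, and is named after its values were seen. The list summed to 0.945 to 3.56 CPM in WT and 0.723 to 0.997 CPM in libraries labelled Rag1-/-, and Eomes, which neurons also express, made up 68.3% of it.

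The class II chains and Cd74 were covered by 39 to 328 reads per library, and none of them separated the genotypes. H2-Aa, the alpha chain of the I-A molecule (chromosome 17, 34282751 to 34287771, minus strand), was at 1.01, 1.70 and 1.90 CPM in WT (43, 79 and 66 reads). It was at 1.13, 1.58 and 1.25 CPM in libraries labelled Rag1-/- (39, 50 and 44 reads), all within the WT range. The means were 1.54 ± 0.463 and 1.32 ± 0.236 CPM (SD, n = 3), a log2 difference of -0.17 (SE 0.24, 95% interval -0.72 to 0.38, adjusted p = 0.801 by limma-trend).

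H2-Ab1, the beta chain that pairs with it (chromosome 17, 34263227 to 34269418, plus strand), was at 1.89, 3.51 and 2.73 CPM in WT (80, 163 and 95 reads). Libraries labelled Rag1-/- were at 2.37, 2.85 and 2.48 CPM (82, 90 and 87 reads), again all inside the WT range. The log2 difference was -0.04 (SE 0.21, 95% interval -0.52 to 0.44, adjusted p = 0.959 by limma-trend), and its sign turned under quantile normalization (0.056) and median-of-ratios scaling (0.0027), so no direction is given.

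H2-Eb1 encodes the beta chain of the I-E molecule, whose alpha chain is not made in C57BL/6 mice (chromosome 17, 34305867 to 34316674, plus strand). It was at 1.70, 2.41 and 2.16 CPM in WT (72, 112 and 75 reads) and at 1.68, 1.71 and 1.22 CPM in libraries labelled Rag1-/- (58, 54 and 43 reads). The groups overlapped only at WT replicate 1, which lay just below labelled Rag1-/- replicate 2. The means were 2.09 ± 0.361 and 1.54 ± 0.271 CPM (SD, n = 3), a change of -26.4%, with a log2 difference of -0.42 (SE 0.19, 95% interval -0.85 to 0.01). Its unadjusted p was 0.0527 and its adjusted p 0.436 by limma-trend, and the exact permutation test gave p = 0.2.

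Cd74, the invariant chain on which class II pairs fold (chromosome 18, 60803849 to 60812652, plus strand), was the most abundant of the 10. It was at 3.82, 7.06 and 6.06 CPM in WT (162, 328 and 211 reads) and at 4.77, 5.86 and 4.75 CPM in libraries labelled Rag1-/- (165, 185 and 167 reads). The latter again lay within the WT range, and the log2 difference was -0.10 (SE 0.21, 95% interval -0.57 to 0.37, adjusted p = 0.872 by limma-trend). Without WT replicate 2 its sign turned (0.081), as did that of H2-Ab1 (0.16).

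The 4 genes H2-Aa, H2-Ab1, H2-Eb1 and Cd74 had a wider range among the WT mice than the gap between the genotype means. Their summed level was 8.42, 14.7 and 12.8 CPM in WT and 9.93, 12 and 9.71 CPM in libraries labelled Rag1-/-, so that WT replicates 1 and 2 were the lowest and the highest of all 6 libraries. The proportions of these genes within a library were also compared. Cd74 was 2.01 to 2.22 times H2-Ab1 in WT and 1.92 to 2.06 times in libraries labelled Rag1-/- (a ratio of CPM within 1 library), although the H2-Ab1 level itself differed 1.86-fold between the lowest and highest WT library. The ratio of H2-Eb1 to H2-Ab1 was 0.687 to 0.9 in WT and 0.494 to 0.707 in libraries labelled Rag1-/-, and that of H2-Aa to H2-Ab1 was 0.485 to 0.695 and 0.476 to 0.556. The median log2 difference of the 4 genes was -0.14, against -0.05 over all tested genes. It depended on single libraries, at -0.39 without WT replicate 1, 0 to 2 decimals without WT replicate 2, -0.02 without WT replicate 3, -0.06 without labelled Rag1-/- replicate 1 and -0.25 without labelled Rag1-/- replicate 2. The median was -0.36 with the Xist term and -0.05 with quantile normalization.

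Because WT replicate 1 was the lowest WT library for each of the 4, it decided how far the genotypes overlapped. Without it, 5 of the 8 tested genes were lower in every library labelled Rag1-/- than in the remaining 2 WT libraries (Ptprc, Cd79b, H2-Aa, H2-Eb1 and Cd74), while 20.5% of all tested genes then were. At an unadjusted p up to 0.05 there were then 3 of 8 in limma-trend (Ptprc, H2-Eb1 and Cd74), where 7.09% of all genes were lower, and still 0 at an adjusted p under 0.05. Without labelled Rag1-/- replicate 2, the library low in Hox genes, 2 were fully separated and 2 had an unadjusted p up to 0.05 (Ptprc and H2-Eb1 in both cases), with 22.6% of all genes separated in that direction and 8.23% lower at that p.

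**Figure D3:**
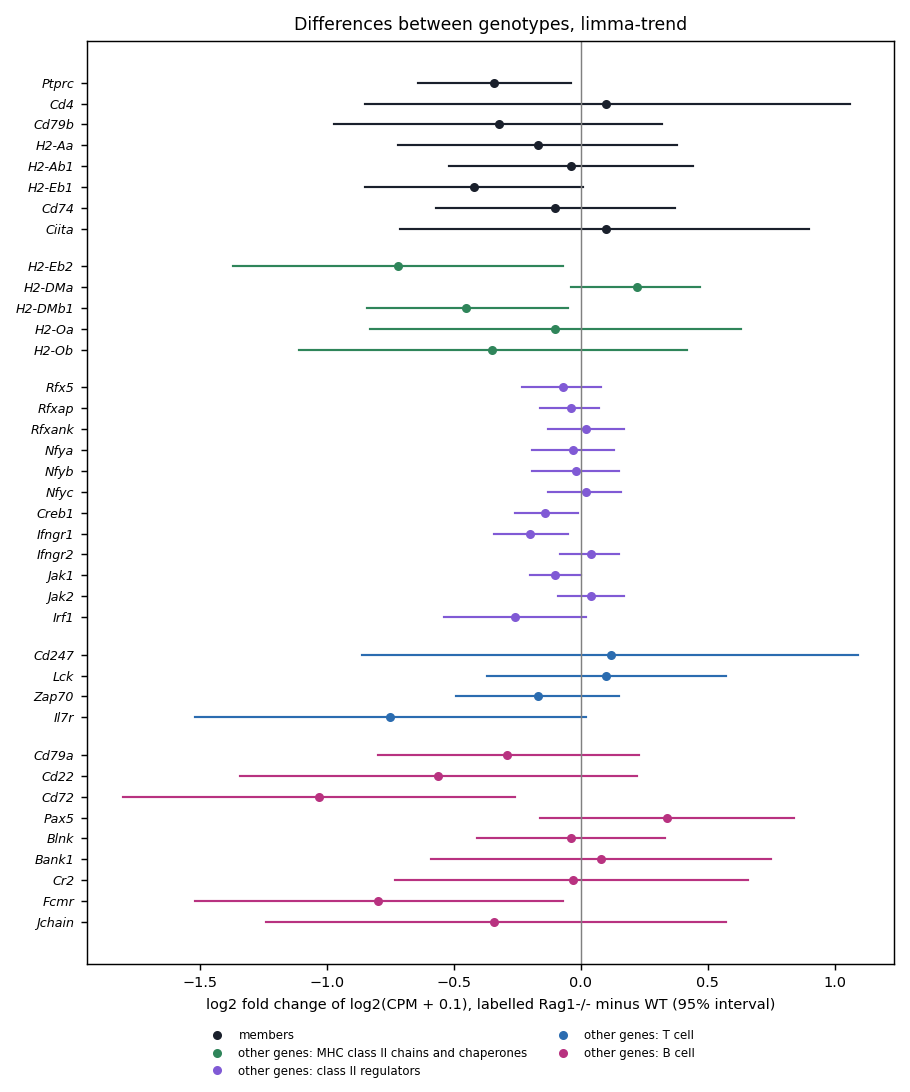
Log2 difference on the log2(CPM + 0.1) scale, labelled Rag1-/- minus WT, with its 95% interval from limma-trend, for the 8 tested members (black) and other tested genes of the class II, T cell and B cell lists (colours); the line marks 0. The interval of Ptprc (-0.64 to -0.04) is the one among the 8 that leaves out 0, and that of Cd4 (-0.85 to 1.06) is the widest.

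The partners of these chains had differences in both directions, none past the correction. Of the list of 10 class II chains and chaperones, 9 were tested, and limma-trend gave an unadjusted p up to 0.05 for 2 lower genes (9.29% of all tested genes) and 0 higher ones. H2-Eb2, a further I-E type beta chain gene, was at 12, 10 and 9 reads in WT and 5, 2 and 5 in libraries labelled Rag1-/- (log2 difference -0.72, SE 0.29, adjusted p = 0.401 by limma-trend). H2-DMb1, a chain of the H2-DM chaperone that loads peptides, was at 1.22 ± 0.0163 CPM in WT and 0.876 ± 0.154 CPM (SD, n = 3) in libraries labelled Rag1-/- (log2 difference -0.45, SE 0.17, adjusted p = 0.398). H2-DMb1 and H2-DMb2 are near-identical neighbours whose reads were counted in fractions, so their values are uncertain.

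H2-DMa, the alpha chain of the same chaperone, was instead at 3.68, 3.79 and 3.22 CPM in WT and at 4.48, 4.06 and 3.93 CPM in libraries labelled Rag1-/-, all above WT (log2 difference 0.22, SE 0.11, adjusted p = 0.491 by limma-trend). H2-Ob, a chain of the H2-DM inhibitor H2-O, was at 0.322 ± 0.0333 and 0.252 ± 0.15 CPM (SD, n = 3). The 10 genes summed to 14.3 to 20.7 CPM in WT and 15.0 to 17.8 CPM in libraries labelled Rag1-/-, with Cd74 as 31.7% of the sum. Of 9 genes of class II loading proteases and costimulation, 1 passed an unadjusted p of 0.05 in limma-trend, as lower, where 9.29% of all tested genes were. It was Ctss, the protease that trims the invariant chain, at 49.8 ± 4.96 CPM in WT and 43.2 ± 3.38 CPM (SD, n = 3; log2 difference -0.20, SE 0.08, adjusted p = 0.406).

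Ciita, the activator on which class II transcription depends (chromosome 16, 10480072 to 10527640, plus strand), stood at 4 to 16 reads. It was at 0.212, 0.28 and 0.288 CPM in WT (9, 13 and 10 reads) and at 0.462, 0.127 and 0.342 CPM in libraries labelled Rag1-/- (16, 4 and 12 reads). Labelled Rag1-/- replicates 1 and 2 were the highest and the lowest of all 6, so the WT libraries lay between them. The means were 0.26 ± 0.0413 and 0.31 ± 0.17 CPM (SD, n = 3), a log2 difference of 0.10 (SE 0.35, 95% interval -0.71 to 0.90, adjusted p = 0.934 by limma-trend). WT replicate 1 was the lowest WT library for Ciita, as it was for the 4 class II genes. Labelled Rag1-/- replicate 2, the highest of its group for those genes, was the lowest of all 6 for Ciita. Dexi overlaps an exon of Ciita on the opposite strand, which adds to the uncertainty of so few reads.

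Genes that act above Ciita and beside it were far more abundant. Of a list of 15 class II regulators, 14 were deposited and tested (Ifng was not among the deposited genes used here). At an unadjusted p up to 0.05, 3 of the 14 were lower (9.29% of all tested genes were) and 0 higher (2.27%) in limma-trend, with a median log2 difference of -0.04. Ifngr1, the ligand-binding chain of the interferon-gamma receptor, was at 17.3 ± 0.562 and 15.1 ± 0.736 CPM (SD, n = 3; log2 difference -0.20, SE 0.06, adjusted p = 0.355 by limma-trend).

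Creb1, a factor of the complex at the X box, was at 40.1 ± 2.12 and 36.5 ± 1.43 CPM (SD, n = 3; log2 difference -0.14, SE 0.06, adjusted p = 0.415 by limma-trend). Jak1, a kinase of the same receptor, was at 123 ± 3.63 and 115 ± 4.35 CPM, with no overlap. Irf1, the interferon-induced activator of Ciita, was also lower in every library labelled Rag1-/-, at 4.12 ± 0.148 and 3.45 ± 0.449 CPM, and is named after its values were seen. The summed level of the regulators was 385 to 399 CPM in WT and 366 to 377 CPM in libraries labelled Rag1-/-. In all, 4 of 14, with Ifngr1, Jak1 and Irf1 among them, were separated in this direction, which 14.4% of all tested genes were.

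Levels of the 10 genes can be ordered only per transcript length, taken from the longest coding transcript. In WT, Cd74 was highest at 4.01 CPM per kb (range 2.71 to 5.01), followed by H2-Ab1 at 2.24 (1.56 to 2.9), H2-Aa at 1.36 (0.9 to 1.68) and H2-Eb1 at 1.25 (1.02 to 1.45). The ranges of each of these and the next overlapped over the 3 WT mice, although Cd74 was above H2-Ab1 and H2-Ab1 above H2-Aa in every library. Ptprc followed at 0.509 CPM per kb (0.479 to 0.556), apart from the class II genes above it and from Cd79b at 0.193 (0.148 to 0.221) below it. Cd79b and Cd4 (0.115, range 0.0485 to 0.213) overlapped. Ciita was at 0.0433 CPM per kb, Cd3e at 0.0431 and Ms4a1 at 0.0262, the last pair at or near their floors. In libraries labelled Rag1-/- the order of the means down to Ciita was the same, and there Cd74 (3.37 to 4.16), H2-Ab1 (1.95 to 2.35) and H2-Aa (0.999 to 1.4) did not overlap.

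The border macrophage and dendritic cell list, the cells that carry most class II at the brain's surfaces, had 12 of 14 genes tested and 0 at an unadjusted p up to 0.05 in limma-trend, with a summed level of 27.3 to 35.2 CPM in WT and 25.6 to 30.4 CPM in libraries labelled Rag1-/-. Flt3 alone made up 42.6% of that sum, at 13.4 ± 0.401 CPM in WT and 11.8 ± 1.88 CPM (SD, n = 3) in libraries labelled Rag1-/-. The sum is therefore in large part the level of 1 gene. WT replicate 1, lowest for the 4 class II genes, had the lowest WT sum here too. Granulocyte and monocyte genes had the largest share past that line of the lists used here. Of 8 tested, 6 were lower (9.29% of all tested genes were) and 0 higher (2.27%), none at an adjusted p under 0.05, and the list summed to 5.27, 12.7 and 18.2 CPM in WT and to 2.88, 3.87 and 5.8 CPM in libraries labelled Rag1-/-. Mpo, the peroxidase of neutrophil granules, had a log2 difference of -1.67 (SE 0.38, adjusted p = 0.285 by limma-trend). S100a9, the most abundant of the list, was at 1.98, 4.61 and 6.96 CPM in WT against 0.982, 1.27 and 1.94 CPM.

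Red blood cell genes, with 0 of 5 past that line in limma-trend, summed to 418 to 1180 CPM in WT and 590 to 944 CPM in libraries labelled Rag1-/-. How much blood remained in each sample was not measured. WT replicate 1 had the lowest sum of any library for red blood cell genes and the lowest WT sum for granulocyte genes, as it had for the 4 class II genes. The part of these cells in the values of the 10 genes was not tested. Ptprc separated the genotypes, as did 14.4% of all tested genes in the same direction. So did 0 of 10 tested microglia genes, 3 of 10 tested B cell genes and 3 of 8 tested granulocyte and monocyte genes. Which cells the Ptprc difference came from was not tested.

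**Figure D4:**
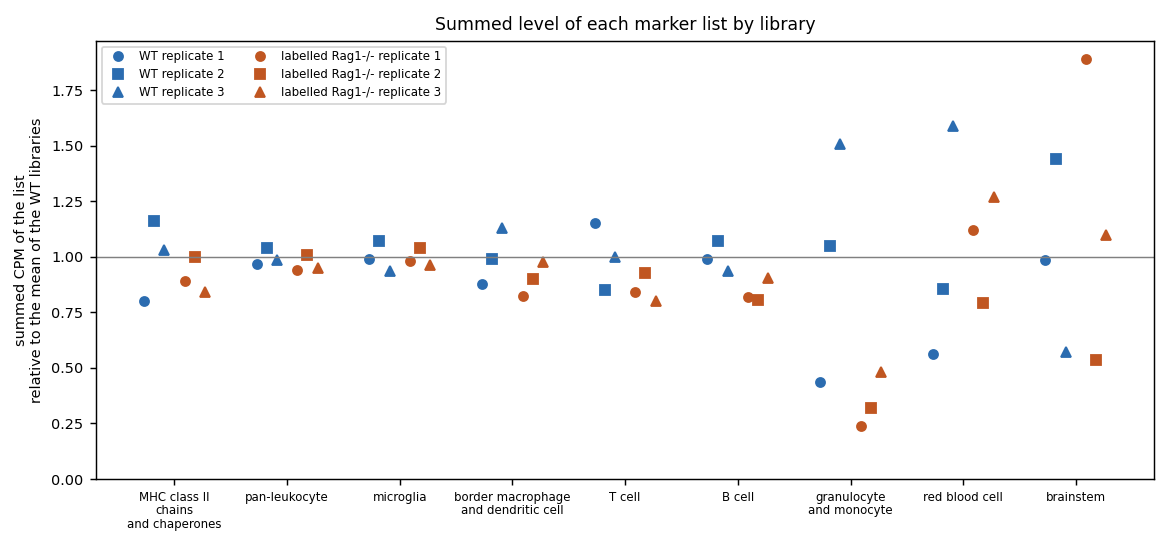
Summed CPM of each marker list in each library, divided by the mean of the 3 WT libraries (vertical axis, linear, from 0); blue is WT, orange is labelled Rag1-/-, and the grey line marks 1. Class II chain and chaperone, pan-leukocyte and microglia sums overlap between the genotypes, B cell sums do not, and the granulocyte and monocyte sums range from 0.239 to 1.51.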

How the data were processed

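Whole brainstem RNA of 3 WT and 3 Rag1-/- mice was sequenced on an Illumina HiSeq. The authors aligned reads to mm10 with STAR 2.5.3a, counted them on RefSeq transcripts with Partek Flow, and deposited a CPM table with 0.0001 added to each value. A filter before deposit is not stated. Coordinates follow that table, with the end 1 base before its stop. Low values were whole multiples of 1 read, within 0.1 read, for 85.2% to 86.7% of genes, which was too few to recover whole reads, and no count test was run. The deposited genes hold 79.1% to 80.4% of the total to which a library was scaled.

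From these, log2(CPM + 0.1) was tested with limma-trend (limma 3.58.1, R 4.3.3) over the 16762 genes whose mean CPM reached 0.1, with Benjamini-Hochberg adjustment, and the test was tested on simulated data. The remaining 1296 genes were left out. Single genes were compared with exact two-sided permutation tests over 20 assignments. The genes named are the 10 members, Rag1, Xist and Ddx3y, and in each marker list the 4 other genes with the smallest p or fewer, besides exceptions given in the text. Some genes of the lists count in the totals but are not reported here. Members and lists were chosen with earlier results of these data known. Summaries were made with Python 3.11.15 and pandas 2.3.3, and plots with matplotlib 3.10.9. Promoters were read from RefSeq (GRCm38.p6) and transcript lengths from the GENCODE annotation of that build. Alternatives were other pseudocounts, filters, scalings and variance models, a replicate block, a term for Xist-high libraries, and leaving out each library.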

Additional observations from a re-analysis of the deposited data

How the results depend on the processing

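No member had an adjusted p under 0.05 in limma-trend under any alternative run, and of 117 recomputed log2 differences of members 105 kept their direction. The count of all genes called, 8, was 4 with a pseudocount of 0.01, 4 without a filter, 4 with a filter at a mean of 1 CPM, 5 with quantile normalization, 2 without the trend, 3 with the replicate block, 134 with the Xist term, and 2 to 24 with 1 library left out (24 without WT replicate 3). Members with an unadjusted p up to 0.05, 1 in the report, were 2 with a pseudocount of 1, 2 without a filter (Ptprc and Ms4a1), 0 with quantile normalization, 0 with the Xist term, and 0 to 3 with 1 library left out, 0 without WT replicate 2, labelled Rag1-/- replicate 1 or labelled Rag1-/- replicate 3, and 3 without WT replicate 1. Members separated downward, 1 in the report, were 2 without a filter and 1 to 5 with 1 library left out. The sign turned for Cd4 (-0.79 with the Xist term, -0.25 to 0.55 with 1 library left out), Ciita (-0.016 and -0.18 to 0.48), H2-Ab1 (0.056 with quantile normalization, 0.0027 with median-of-ratios scaling, -0.27 to 0.16 with 1 library left out) and Cd74 (-0.35 to 0.081 with 1 library left out). Xist-high libraries were WT only, so the Xist term leaves the genotype difference to WT replicate 3 against 3 libraries. Why these values changed was not tested. Same-numbered libraries had correlations of 0.093, -0.22 and -0.018 in their deviations, so they have no more than a number in common. With the replicate block Ptprc was still the 1 member past an unadjusted p of 0.05. Depth limits Cd3e and Ms4a1 to 10 reads or fewer per genotype.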
